A study of Mus musculus with 2 samples.

Results

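Interferon-stimulated genes were measured in mouse nasal mucosa 3 days after papain, a cysteine protease from papaya that provokes allergic inflammation in airways, and 3 days after phosphate-buffered saline (PBS), the control. The set was a fixed list of 39 genes, taken by gene symbol, and 35 of them had a transcript cluster (a row of the array) that carried their symbol alone. They are 35 of the 22180 genes named in this way. Rows for Dtx3l, Gbp2 and Oas1a also named another gene, and Ifi44 was on no row that carried its name, so these 4 genes are left out of the counts and medians of ratios.

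Both groups were C57BL/6 mice aged 4 to 6 weeks, with no genetic modification in the labels, and differed in the agent instilled. Total RNA of each went onto 1 array, an Affymetrix Mouse Gene 2.0 ST. The design text states that 4 samples went into a combined specimen and does not say whether that number is per array. Since a group was a lone array, differences could not be set against replicates or tested, and precision is limited by this number of arrays.

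Interferons are cytokines that warn cells of infection. Type I interferons (alpha and beta) and type III interferons (lambda) signal through Janus kinases to a complex that includes STAT2 and IRF9 and binds interferon-stimulated response elements before genes such as Ifit1 and Isg15. Type II interferon (gamma) acts through gamma-activated sites before genes such as Irf1 and the guanylate-binding proteins. The products sense foreign nucleic acid, block translation or release of virus, tag proteins with ISG15, or attack vacuoles that hold pathogens. In airway epithelium these genes are a standard readout of interferon exposure.

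Values are log2 signals as deposited, and each ratio is the log2 papain signal minus the log2 PBS signal, so 0.58 is 1.5-fold. Background level is 5.34 for papain and 5.11 for PBS, the medians over 32 genes that belong to other tissues. A ratio with a signal under that level is a ratio of array signals and no measure of transcript, and one with a signal under 6.57, the 95 percentile of the same genes, is of uncertain size. Among the 32, Odf1 read 10.48 after papain and 10.91 after PBS, far above the rest, which raised this percentile. The floor used for some counts is a signal of 6.29 in the higher array, the median over named genes. From 1082 genes with repeated rows, the SD of the ratio of 1 row was 0.32, an error of the array rows and not of the animals. Epithelial and olfactory neuron markers, 7 of 7 measured in each list, were above background level in both arrays. Across all rows the arrays correlated with r of 0.967, a value across rows that are not replicates.

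The promoter windows of 5 listed genes are shown because they hold, or lack, exact matches to motifs of the elements through which interferons act. They also include genes with high and with low ratios. Oas2, which had the highest ratio, has no window here. RefSeq windows (GRCm38.p6) from 250 bases before to 50 bases after the annotated start were found for 30 of the 39 genes. The motifs searched on both strands were GAAANNGAAA, an interferon-stimulated response element, and TTCNNNGAA, a gamma-activated site, and both are in capitals below, read 5′ to 3′ on the strand of the gene.
Ifit1, chr19:34640639-34640938, plus strand: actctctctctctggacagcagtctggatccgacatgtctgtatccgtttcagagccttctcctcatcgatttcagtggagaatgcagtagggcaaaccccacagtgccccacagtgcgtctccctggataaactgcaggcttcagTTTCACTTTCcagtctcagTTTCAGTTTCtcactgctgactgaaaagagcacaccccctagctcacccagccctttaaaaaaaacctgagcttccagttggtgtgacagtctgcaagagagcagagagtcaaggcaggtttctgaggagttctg
Isg15, chr4:156200769-156201068, minus strand: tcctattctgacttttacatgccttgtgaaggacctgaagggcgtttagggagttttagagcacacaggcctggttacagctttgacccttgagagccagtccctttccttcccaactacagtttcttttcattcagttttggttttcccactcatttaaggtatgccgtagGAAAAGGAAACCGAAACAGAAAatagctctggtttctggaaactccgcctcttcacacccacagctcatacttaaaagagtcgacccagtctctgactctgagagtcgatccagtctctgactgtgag
Oasl2, chr5:114896684-114896983, plus strand: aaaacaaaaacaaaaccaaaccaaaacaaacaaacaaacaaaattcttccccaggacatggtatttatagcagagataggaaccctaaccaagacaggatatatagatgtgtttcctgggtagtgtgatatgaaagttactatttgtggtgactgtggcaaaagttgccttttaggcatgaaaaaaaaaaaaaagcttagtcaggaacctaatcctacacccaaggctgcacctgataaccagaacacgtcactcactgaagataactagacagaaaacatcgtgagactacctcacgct
Gbp5, chr3:142496684-142496983, plus strand: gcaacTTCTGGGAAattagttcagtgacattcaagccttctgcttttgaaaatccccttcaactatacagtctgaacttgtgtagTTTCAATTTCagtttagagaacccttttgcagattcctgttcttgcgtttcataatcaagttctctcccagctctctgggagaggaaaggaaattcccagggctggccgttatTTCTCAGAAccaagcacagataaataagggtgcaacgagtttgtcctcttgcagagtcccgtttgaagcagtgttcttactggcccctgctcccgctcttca
Oas3, chr5:120777610-120777909, minus strand: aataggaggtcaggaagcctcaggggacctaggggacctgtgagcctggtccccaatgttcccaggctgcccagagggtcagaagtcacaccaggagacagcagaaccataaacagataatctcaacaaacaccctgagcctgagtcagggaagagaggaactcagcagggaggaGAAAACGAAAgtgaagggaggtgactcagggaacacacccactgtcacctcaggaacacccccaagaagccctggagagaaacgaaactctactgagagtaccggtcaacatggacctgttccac

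The Ifit1 window held response elements starting at positions -104 and -85 from the annotated start, and Isg15 had 3 overlapping matches from -78 to -66. Gbp5 had 1 response element at -165 and 2 gamma-activated sites, Oas3 had 1 response element at -75, and Oasl2 had no match of either kind in this window. The response element was present in 17 of the 30 listed genes with a window, 56.7%, against 3.99% of 27025 genes and 3.44% of 32851 windows in the table. The gamma-activated site was present in 9 of 30, 30.0%, against 9.55% of genes and 8.30% of windows. The motifs overlapped each other in 1 of the 35 windows of the listed genes, that of Bst2.

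Listed genes with and without a match to the response element had overlapping ratios. The 15 measured genes with it had a median log2 ratio of 0.16, from -0.45 for Gbp5 to 0.61 for Ifit1. The 11 measured genes with a window but no match had a median of 0.12, from -0.18 for Irf9 to 0.63 for Oasl2. Across all named genes with a window, the median was 0.00 for 657 with the element and -0.04 for 16333 without it. Of the 657, 6.70% were higher after papain by 1.5-fold or more, against 5.16% of the 16333. The 8 measured listed genes with a gamma-activated site had a median of 0.00, from -0.45 to 0.43. The 18 without one had 0.26, from -0.29 to 0.63, so the ranges overlapped. Gbp5 and Ifit2, among the 8, were under background level in both arrays. Across all named genes with a window, the median was -0.03 for 1555 with the site and -0.04 for 15435 without it. A match is a description of these letters and no evidence of binding. A window without an exact match may hold a looser form of the element, so the groups reflect the pattern searched.

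The listed genes were, for the most part, slightly higher in the papain array. Of the 35 measured, 26 had a ratio above 0, against 45.6% of all named genes and 35.9% of 11691 named genes at or above the floor. The 32 genes of other tissues, mostly dim, went the same way. Of them, 21 had a ratio above 0, 65.6% against 74.3% of the listed genes, with a median of 0.12. Only 5 of the 32 were at or above the floor. The listed genes had a median ratio of 0.25, against -0.03 over all named genes and -0.10 over those at or above the floor. The middle of the distribution, from the lower to the upper quartile, ran from 0.00 to 0.44 for the listed genes and from -0.24 to 0.18 for all named genes.

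Few of these differences were large. At least 1.5-fold higher were 4 of 35, Oas2, Oasl2, Zbp1 and Ifit1, or 11.4%. The share was 5.38% over all named genes and 12.5% over the 32 genes of other tissues. All 4 listed genes lay among the 26 at or above the floor, where the share over named genes was 3.40%. Oas2 reached the floor only through its papain signal, 6.44 against 5.37 after PBS. For it, this filter is not independent of the ratio. None of the 35 was at least 1.5-fold lower, against 4.34% both of all named genes and of those at or above the floor. At 2-fold, 1 of 35 passed, Oas2, against 1.83% of all named genes. Of the 35 ratios, 20 were no larger in size than 1 SD of a row, 0.32, and only that of Oas2 exceeded 2 of them, 0.65. The SD was smaller, 0.24, over 224 genes whose repeated rows both had a mean signal of the 2 arrays at or above the floor value. Of the 26 listed genes at or above the floor, 6 exceeded 2 of these smaller SDs, 0.49: Oas2, Oasl2, Zbp1, Ifit1, Rtp4 and Samd9l. The 26 were chosen by their higher array and not by the mean. The mean of Oas2 lies under the floor value, so the smaller SD does not cover it. The share of all named genes past either SD, in both directions, was not computed, so these counts are not read as a result about the listed genes. On the higher side, 7.52% of all named genes had a ratio at or above that of Samd9l, 0.49, the lowest of the 6. For that of Oasl2, 0.63, the share was 4.54%.

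**Figure D1:**
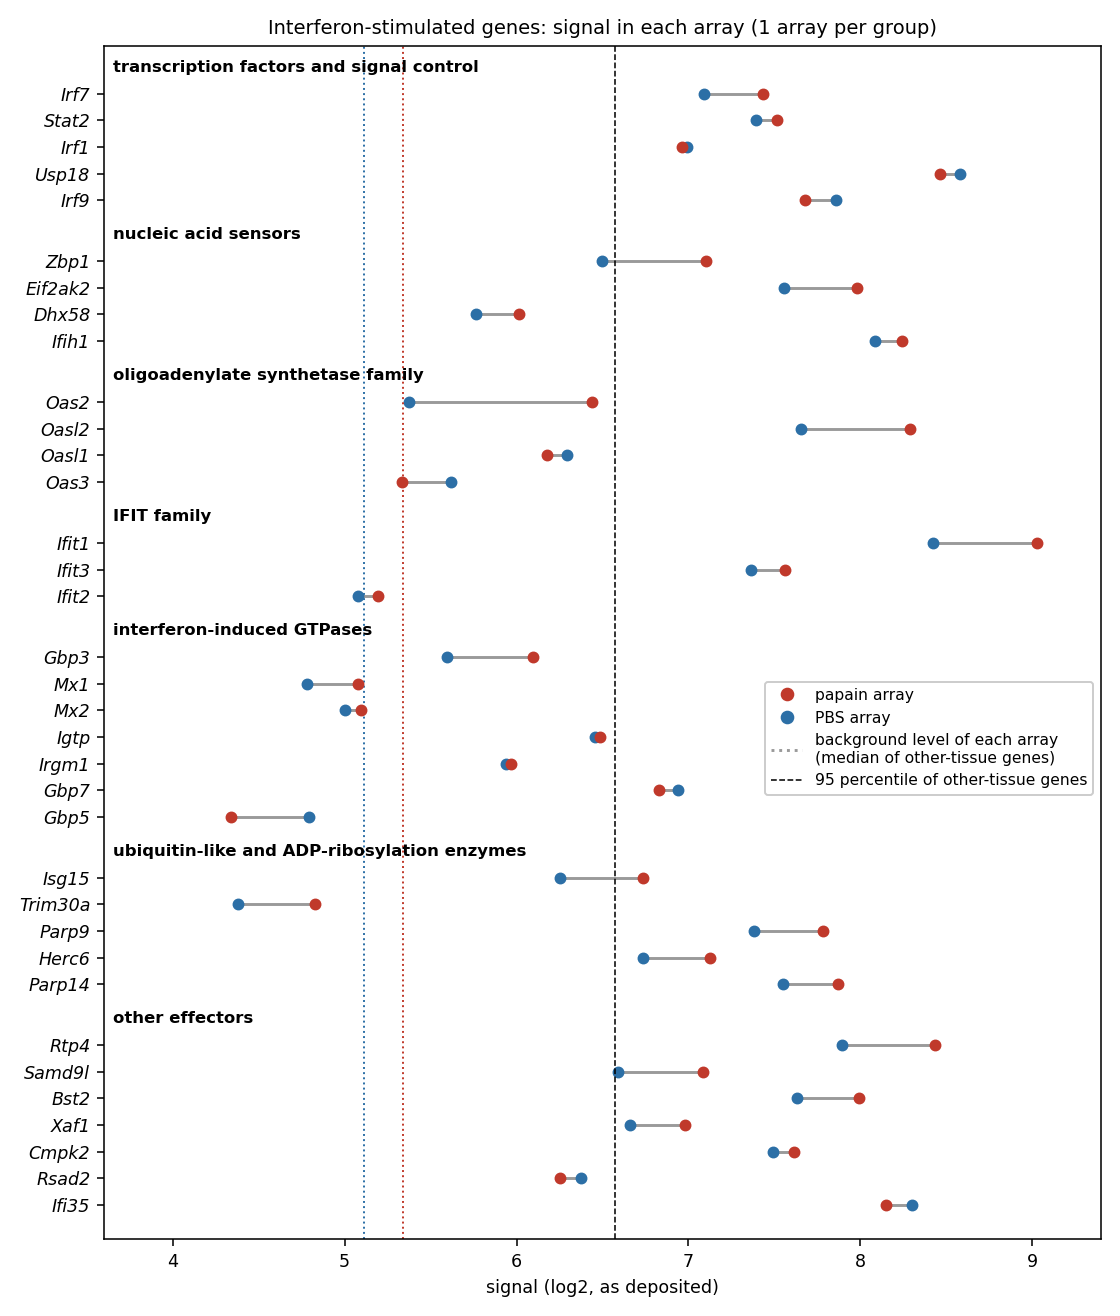
Log2 signal of each measured interferon-stimulated gene (horizontal axis) in the papain array (red) and the PBS array (blue), grouped by role, with 1 array per group and no error bar. Dotted lines are the background level of each array, 5.34 and 5.11, and the dashed line is the 95 percentile of other-tissue genes, 6.57. Red lies to the right of blue for 26 of the 35 genes.

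**Figure D2:**
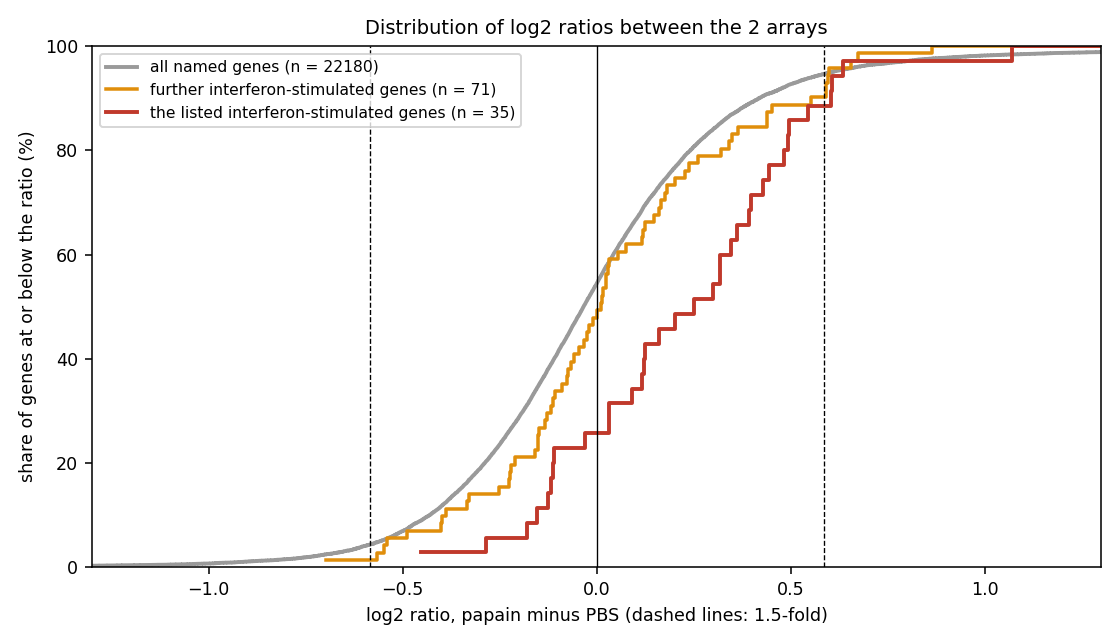
Share of genes at or below each log2 ratio of papain over PBS, for 35 listed interferon-stimulated genes (red), 71 further interferon-stimulated genes (orange) and 22180 named genes (grey), with dashed lines at 1.5-fold. The red curve lies to the right of the other curves over most of its range, with medians of 0.25, 0.01 and -0.03.

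Transcription factors and signal control genes differed little between the arrays. Irf7, the factor that amplifies interferon alpha production, read 7.44 after papain and 7.09 after PBS, a ratio of 0.35. Stat2, a subunit of the factor complex, had 0.12, and its partner Irf9, which binds the DNA, had -0.18 from 7.68 against 7.86. Irf1, a gene that interferon gamma induces directly, had -0.03, and Usp18, which removes ISG15 and dampens the type I receptor, had -0.11. The group of 5 had a median of -0.03, with 2 genes above 0, and the sign of this median turned after quantile normalization, after setting the median ratio of all named genes to 0, and after loess of the ratio on signal.

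All 4 nucleic acid sensors were higher in the papain array, with a median of 0.34. Zbp1, which binds Z-form nucleic acid and can start necroptosis, read 7.10 after papain and 6.50 after PBS, a ratio of 0.61 whose size is uncertain because the PBS signal is under 6.57. Eif2ak2, the kinase PKR that stops translation on double-stranded RNA, read 7.98 and 7.55, a ratio of 0.43. Dhx58 and Ifih1, the RNA helicases LGP2 and MDA5, had 0.25 and 0.16. Of the 4, only Zbp1 reached 1.5-fold.

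The oligoadenylate synthetases, which make the messenger that activates RNase L, had ratios on both sides of 0. Oas2 read 6.44 after papain and 5.37 after PBS, the largest ratio of the listed genes at 1.07, and 1.62% of all named genes had a ratio as high. Its PBS signal was just above background level, so the size of this ratio is uncertain. Oasl2, a family member with ubiquitin-like domains, read 8.29 and 7.65, a ratio of 0.63 from signals well above 6.57 in both arrays. Its relative Oasl1, which restrains translation of Irf7, had -0.12, and Oas3 had -0.29 with its papain signal of 5.33 under background level.

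Over the whole Oas and Oasl family, 8 of 11 measured genes had ratios above 0, against 45.6% of all named genes, and 4 were at least 1.5-fold higher, against 5.38%. Besides Oas2 and Oasl2 these were Oas1c, at 6.49 against 5.87 and a ratio of 0.62, and Oas1b, whose signals of 5.12 and 4.53 were under background level. Of the 11, only 4 were above background level in both arrays, and these genes share sequence, so the value of each is uncertain.

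The 3 IFIT genes, whose proteins bind viral RNA that lacks host cap marks, all had ratios above 0. Ifit1 read 9.03 after papain and 8.42 after PBS, a ratio of 0.61, and 5.03% of all named genes had one as high. Ifit3 read 7.56 and 7.36, a ratio of 0.20, within 1 SD of a row. Ifit2, at 5.20 and 5.08, was under background level in both arrays. The related gene Ifit1bl1, named after its value was seen, read 9.83 and 9.86, a ratio of -0.02.

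The interferon-induced GTPases had a median of 0.03, the nearest to 0 of the groups of effectors. Gbp3 read 6.09 after papain and 5.60 after PBS, a ratio of 0.50, while its neighbour Gbp7 had -0.11 and Gbp5, with signals of 4.34 and 4.79 under background level, had -0.45. These guanylate-binding proteins coat vacuoles and cytosolic bacteria and are typical targets of interferon gamma. Across the Gbp family, 2 of 10 measured genes had ratios above 0, against 45.6% of all named genes. These were Gbp3 and, with both signals under background level, Gbp8. The family median was -0.13, with 3 of the 10 above background level in both arrays. Not among the 10 is the row that names Gbp2 and Gbp2b, brighter than theirs, at 7.43 and 7.10 with a ratio of 0.33. The immunity-related GTPases Igtp and Irgm1, which act on the same vacuoles, had ratios of 0.03 each. Mx1 and Mx2, which trap viral nucleocapsids, had signals from 4.78 to 5.10, all under background level, so no fold is given for them. Common laboratory strains such as C57BL/6 carry Mx1 alleles that give no working protein.

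The ubiquitin-like and ADP-ribosylation group had the highest median of the groups, 0.40, and all 5 measured genes were above 0. Isg15, the ubiquitin-like modifier, read 6.74 after papain and 6.26 after PBS, a ratio of 0.48 of uncertain size. Herc6, the main ISG15 ligase of the mouse, read 7.13 and 6.73, a ratio of 0.39. Parp9, which works in a complex with the ubiquitin ligase Dtx3l, read 7.78 and 7.38, a ratio of 0.40. Parp14, an ADP-ribosyltransferase encoded next to Dtx3l, read 7.87 and 7.55, a ratio of 0.32. Trim30a, a regulator of Toll-like receptor signalling, had 0.44 but was under background level in both arrays. None of the 5 reached 1.5-fold.

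The remaining effectors had a median of 0.32, with 5 of 7 above 0 and all 7 above background level. Rtp4, an interferon-induced receptor transporter protein, read 8.44 after papain and 7.89 after PBS, a ratio of 0.54, and Samd9l, an antiviral factor, read 7.08 and 6.59, a ratio of 0.49. Bst2, the tetherin that holds budding virus on the cell surface, had 0.36, and Xaf1, an antagonist of the apoptosis inhibitor XIAP, had 0.32. Cmpk2, a mitochondrial nucleotide kinase, had 0.12 and Rsad2, the antiviral enzyme viperin, had -0.13. Ifi35 had -0.15 on its brighter row and 0.30 on its other row, so its direction depended on the row.

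Among listed genes adjacent in the protein-coding order of the RefSeq table (GRCm38.p6), 6 pairs had both genes measured and 4 of these had ratios of opposite sign. In all 4 the ratio below 0 was within 1 SD of a row, 0.32, and for Cmpk2 and Rsad2 both ratios were. With 45.6% of all named genes above 0, opposite signs are common between any 2 genes. The share over all adjacent pairs was not computed, so the 4 of 6 is not read as a trait of these genes. Oas2 at 1.07 is next to Oas3 at -0.29, Oasl2 at 0.63 is next to Oasl1 at -0.12, Gbp3 at 0.50 is next to Gbp7 at -0.11, and Cmpk2 at 0.12 is next to Rsad2 at -0.13. Ifit2 and Ifit3 were both above 0, and Gbp5 and Gbp7 both below. The sign of Gbp7 changed between settings, and the signals of Oas3 after papain and of Gbp5 and Ifit2 in both arrays were under background level.

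**Figure D3:**
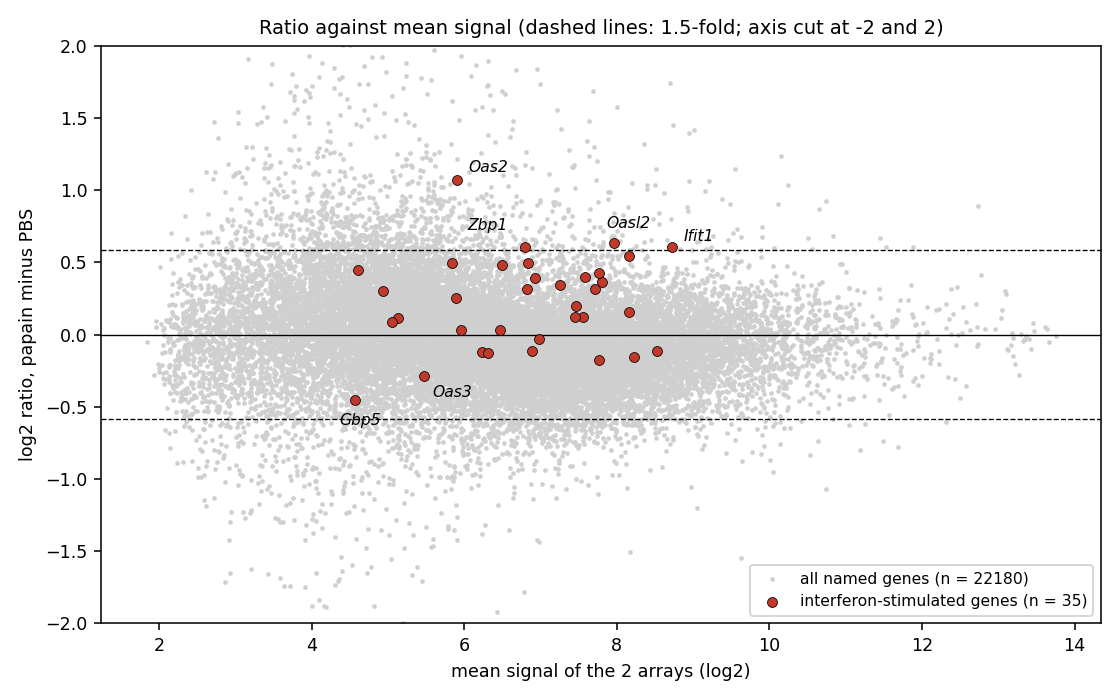
Log2 ratio of papain over PBS (vertical axis) against the mean log2 signal of the 2 arrays, for 22180 named genes (grey) and 35 interferon-stimulated genes (red), with dashed lines at 1.5-fold. The axis leaves out 161 named genes with a ratio beyond 2 in size. Oas2, Oasl2, Zbp1 and Ifit1 are the 4 red points at or above the upper line, and none lies under the lower line.

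A longer list of 71 further measured interferon-stimulated genes had a median ratio of 0.01, with 37 above 0 and 34 below. Past 1.5-fold, 7 were higher after papain, 9.86% against 5.38% of all named genes and 11.4% of the 35 listed genes. Past 1.5-fold in the other direction was 1, 1.41% against 4.34% of all named genes. Those past 1.5-fold and at or above the floor were Ddx60, an RNA helicase, at 6.53 against 5.67 and a ratio of 0.86, Slfn2 with 0.60, Epsti1 with 0.59, Sp100, a nuclear body protein, with 0.59, and Tap2, a peptide transporter of antigen presentation, at 5.75 against 6.44 and -0.70. Psmb10, a subunit of the immunoproteasome named after its value was seen, also read lower after papain, with -0.55. Cxcl11, a chemokine that interferon gamma induces, had 0.44 with its PBS signal under background level, while its relatives Cxcl10 and Cxcl9 had -0.13 and -0.40, the papain signals of both, 5.29 and 5.31, being under background level.

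Signals for the interferons themselves were mostly dim. Of 19 measured ligand genes, 6 were above background level in both arrays and 10 under it in both. Ifnb1, at 3.72 and 3.79, and Ifng, at 4.73 and 4.95, were among those under it, so no ratio is read for them. None of the 19 was both at or above the floor and past 1.5-fold. Of the brighter ligand rows, named after their values were seen, Ifna4 had 0.39, Ifnl3 0.27, Ifna1 0.19 and Ifnl2 -0.22, and the alpha and lambda genes share sequence within each family.

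Interferon receptors, their kinases and other genes of their signal formed a list of 14 measured genes. All 14 were above background level in both arrays, and 13 were at or above the floor. The list had a median of -0.08, with 5 above 0. Ifnar1 and Ifnar2, the type I receptor, had -0.17 and -0.23, Ifngr1 and Ifngr2, the type II receptor, -0.12 and -0.01, and Ifnlr1, the type III receptor, -0.07. Jak1, the kinase that all these receptors use, was the only gene of the list past 1.5-fold, at 10.28 against 9.53 and a ratio of 0.75. Genes that sense nucleic acid upstream of interferon, 16 measured, had a median of -0.14, with 6 above 0. Ddx58, the helicase RIG-I, had 0.46, and Tlr7, an endosomal RNA receptor with a papain signal under background level, had -0.72, both named after their values were seen.

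**Figure D4:**
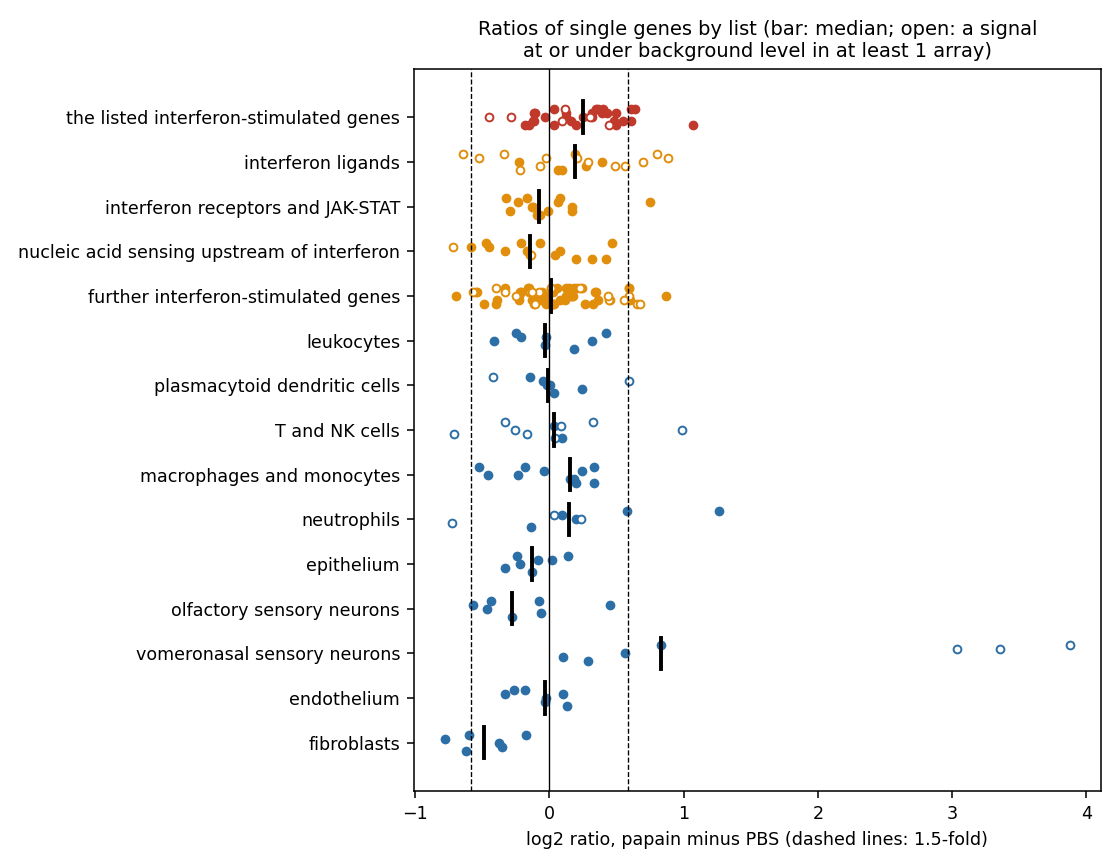
Log2 ratio of papain over PBS for each measured gene of the listed interferon-stimulated genes (red), 4 other lists of the pathway (orange) and 10 lists of cell type markers (blue), with the list median as a bar, dashed lines at 1.5-fold and open circles where a signal was at or under background level in at least 1 array. The listed genes have a median of 0.25, and the further interferon-stimulated genes a median of 0.01.

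In a bulk specimen more cells of a type and more RNA per cell cannot be told apart. The 8 leukocyte markers, all above background level in both arrays, had a median ratio of -0.03, with 3 above 0 and 5 below, a range from -0.42 to 0.42, and a summed linear signal of 1970 after papain and 1947 after PBS. The 11 macrophage and monocyte markers had a median of 0.15, 6 above 0, and summed to 2289 and 2537. Of 10 T and NK cell markers, 2 were above background level in both arrays, with a median of 0.04 and sums of 370.3 and 380.0. For plasmacytoid dendritic cells, a main source of interferon alpha, 8 markers had a median of -0.01. Their sums of 9503 and 9302 came mostly from Klk1, at 12.98 and 12.94, a kallikrein that glands also express, and the defining marker Siglech had -0.15, both named after their values were seen.

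The neutrophil list had a median of 0.14, 6 of 8 above 0, with Cxcr2 at 1.26 and sums of 500.5 and 399.6, while the defining marker Ly6g, at 3.38 and 4.11, was under background level in both arrays. Markers of other tissue also had ratios away from 0. Of 7 olfactory sensory neuron markers 6 were lower in the papain array, with a median of -0.28 and sums of 8421 and 10489, and of 7 epithelial markers 5 were lower, with a median of -0.13 and sums of 6012 and 6586. All 7 vomeronasal neuron markers were higher in the papain array, with a median of 0.83 and sums of 3470 and 2436, and Trpc2, Calr4, H2-M1 and H2-M10.5 were past 1.5-fold with 0.83, 3.35, 3.88 and 3.04, the last 3 from PBS signals under background level. All 6 fibroblast markers were lower, with a median of -0.49 and sums of 11439 and 16594, and Col1a2, Pdgfrb and Col1a1 were past 1.5-fold with -0.78, -0.62 and -0.60. The part of these cell types in the ratios of the interferon-stimulated genes was not tested.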

How the data were processed

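Total RNA from the nasal mucosa of C57BL/6 mice was measured on 1 array per group. The log2 signals per transcript cluster that the authors deposited were used as given. The log2 scale was read from the values. Per the submitters' processing notes, the tool was Transcriptome Analysis Console 4.0. How background was corrected, probes summarised and arrays normalized is not given in the sources used here. If arrays were equalised, a difference in total RNA is not visible. Of 41345 rows, 23521 carried 1 gene symbol in the platform annotation, 1814 several and 16010 none. The row with the highest mean signal was taken per gene, giving 22180 genes. The members and all lists were chosen with earlier results of these data known. All members are described. Other genes named were those of each list past 1.5-fold and at or above the floor (5 at most), with a fixed set of interferon, receptor and chemokine genes, and others are marked. No test was run. Alternatives were quantile normalization, a median ratio of 0, loess (span 0.3), averaged rows, rows with several symbols, the floor, and thresholds of log2 0.32 and 2-fold. The steps were tested on simulated data with planted changes larger than 2-fold, counts at 2-fold and less noise than the row SD. The 1.5-fold counts are not covered by it. Python 3.11.15, numpy 2.4.6, pandas 2.3.3, statsmodels 0.14.6 and matplotlib 3.10.9 were used.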

Additional observations from a re-analysis of the deposited data

Results flagged for a closer look

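Some rows for the listed genes entered no main count, because they name several genes or are the dimmer row of a gene, and 3 of these 4 had a papain signal above the PBS signal. The row that names Gbp2 and Gbp2b read 7.43 after papain and 7.10 after PBS, a log2 ratio of 0.33. The row that names Dtx3l and Parp9 read 7.34 and 7.32, a ratio of 0.023, against 0.40 on the row of Parp9 alone. The dimmer row of Ifi35 had 0.30, against -0.15 on the brighter row that was used. The fourth, which names Oas1a and Oas1g, at 4.79 and 5.12, had -0.33 with its papain signal under background level.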

How the results depend on the processing

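Across quantile normalization, a median ratio of 0, loess, averaged rows, rows with several symbols and the 26 genes at or above the floor, the median log2 ratio of the listed genes ran from 0.23 to 0.32 and 4 to 6 of them were at least 1.5-fold higher, with 0 lower in each. Genes with a ratio above 0 numbered 26 to 28 of 35, or of 38 with several symbols, and 19 of the 26 at or above the floor. Over all named genes, the share above 0 ran from 45.6% to 50.7% across settings, and was 35.9% at or above the floor. The share at least 1.5-fold higher ran from 4.85% to 6.09%, and was 3.40% at or above the floor. Over 35 genes, 25 kept a ratio above 0 and 6 a ratio below 0 in all scalings and with averaged rows, and Gbp7, Ifi35, Irf1 and Irgm1 changed sign. The threshold moved the counts most: at a log2 threshold of 0.32, 14 were higher and 1 lower, and at 2-fold 1 was higher. At 2-fold the share of all named genes was 1.83%. That share was not computed at 0.32 itself. Close to it, 14.8% of all named genes had a ratio at or above that of Xaf1, 0.319, just under the threshold. For that of Irf7, 0.347, just over it, the share was 13.2%. On the lower side no such share was computed. The median of the transcription factors and signal control genes, -0.03 as deposited, turned to 0.026 after quantile normalization, 0.0038 with the median ratio set to 0 and 0.089 after loess. Over named genes at or above the floor, the median ratio was -0.10 as deposited and 0.00 after loess. Signals under background level limit the reading of 5 listed genes in both arrays and of Oas3 in the papain array.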

Other observations

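Families that hold interferon-responsive genes beside others differed member by member. Of 7 measured Schlafen genes, growth regulators of leukocytes with antiviral members, 6 had ratios above 0, against 45.6% of all named genes. Slfn14, 1 of these 6, was under background level in both arrays, and of the 7 only Slfn2 and Slfn8 reached the floor. Slfn2 had 0.60 and Slfn4 had 0.53, while Slfn3 had -1.15 with both signals under background level. Of 11 measured Parp genes, 6 had ratios above 0, 54.5% and near the 45.6% of all named genes, with a median of 0.00. The interferon-induced Parp9, Parp14 and Parp12 had the highest ratios of the family, 0.40, 0.32 and 0.24, and Parp4 had the lowest, -0.43. Parp11, also among the further interferon-stimulated genes, had 0.00. Parp6, on no interferon list here, had 0.20, close to Parp12. Among 5 Herc genes, Herc6 had 0.39 and the other 4 ran from -0.06 for Herc2 to 0.26 for Herc3. All these genes were chosen after their values were seen, and no difference between them was tested.

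The antiviral membrane proteins Ifitm1, Ifitm2 and Ifitm3 had ratios of 0.02, 0.12 and 0.12, each within 1 SD of a row. Ifitm5, a bone gene of the same family, had -1.18.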
